A study of Mus musculus with 6 samples.

Results

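Granule neurons are the principal cells of the dentate gyrus, the entry station of the hippocampal circuit. They receive input from the entorhinal cortex, send mossy fibres to CA3, and are one of the few neuron types that go on being made in adult rodents. A granule neuron keeps its identity through the transcription factor Prox1 and is told apart from the CA pyramidal neurons by a set of further genes for channels, calcium buffers, junction proteins and secreted synaptic proteins. Described here are 9 such identity genes, Prox1, Trpc6, Stxbp6, Dsp, C1ql2, Calb1, Lct, Pdzd2 and Dock10, out of 22180 genes measured. They were chosen by name as dentate granule neuron markers, with earlier results of these data already known. Each was read from the single probe set that the platform annotation pairs with its symbol alone.

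The arrays came from hippocampi of 3 Ahr-KO and 3 wildtype mice, with a different mouse named for each of the 6 arrays. Ahr is the gene of the aryl hydrocarbon receptor, which becomes an active transcription factor when a ligand binds it. The series asked what its loss does in the hippocampus, with adult neurogenesis and granule cell form among its subjects. For the deleted allele, the strain, the age of the mice and any treatment, nothing is stated in the sources used here. Values are log2 signals that the authors obtained with RMA, so a step of 1 is a doubling, and differences are given as Ahr-KO minus wildtype.

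Across the arrays the 9 genes were measured well within the range of the platform. Each averaged above the median row of the value table (5.80 log2), and above 66.8% to 96.6% of all genes tested. Array medians lay between 5.79 and 5.85 log2. Ahr, the targeted gene, read 6.62, 6.91 and 6.74 log2 on the Ahr-KO arrays and 7.68, 7.50 and 7.44 on the wildtype arrays, with no overlap, and it differed by -0.78 ± 0.10 (SE; adjusted p = 0.320 with limma over all genes). Ahr-KO array 1 and wildtype array 2 stood apart from the rest by choroid plexus genes. Ttr, the transthyretin of that epithelium, read 13.15 and 12.64 log2 on them and 8.64 to 9.06 on the other 4 arrays. Results are therefore also given without this pair of arrays.

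The values of the identity genes lay slightly higher in Ahr-KO, and no difference passed the test over all genes. The mean was higher in Ahr-KO for 8 of 9 genes, against 50.7% of all genes and 44.6% of the 13163 genes at or above the median row. The median difference over the 9 was 0.087 log2, and over all genes it was 0.0019. With 1 array left out the median of the 9 ran from 0.027, without wildtype array 1, to 0.14. Of the 9 genes 0 had an adjusted p under 0.05 with limma (background 0%, 0 of 22180 genes). At an unadjusted p under 0.05 there were 3 with higher values (background 3.53%) and 0 with lower values (background 2.65%). These 3 were Prox1, Trpc6 and Stxbp6, which were put on the list with such differences already known from these arrays. This count, the 8 higher means and the median are therefore no independent support for a shift. Without wildtype array 1 the count at an unadjusted p under 0.05 was 1, Stxbp6, beside 1390 of all 22180 genes. A bulk sample cannot tell more granule neurons from more RNA of these genes per neuron.

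The sequence upstream of the start site is shown for 3 identity genes, because the samples differ in a DNA-binding receptor whose dimer with ARNT recognises the core GCGTG. Windows of 300 bases (250 before to 50 after the start) were taken from RefSeq on GRCm38.p6 for 8 of the 9 genes, all but Calb1. GCGTG or its reverse complement CACGC, which covers both strands, was found for 3 of the 8 genes, in Dsp, C1ql2 and Dock10, against 35.2% of all 27025 genes with a window. Counted by window it was in 4 of the 10 of these genes. Of all 32851 windows 32.4% held it, and of the 9690 windows with a GC content of at least 60% the share was 59.2%. The 250 bases before the start are printed for Prox1, on the minus strand at chr1:190170828-190171077, which holds none, and for C1ql2 at chr1:120340332-120340581 and Dsp at chr13:38151044-38151293, both on the plus strand. Capitals mark the core, and no other motif was searched.
Prox1: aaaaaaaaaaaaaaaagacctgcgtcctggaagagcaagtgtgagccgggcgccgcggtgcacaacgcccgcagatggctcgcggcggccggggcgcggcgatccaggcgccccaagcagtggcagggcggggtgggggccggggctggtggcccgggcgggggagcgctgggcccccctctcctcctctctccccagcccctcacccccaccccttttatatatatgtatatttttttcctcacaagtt
C1ql2: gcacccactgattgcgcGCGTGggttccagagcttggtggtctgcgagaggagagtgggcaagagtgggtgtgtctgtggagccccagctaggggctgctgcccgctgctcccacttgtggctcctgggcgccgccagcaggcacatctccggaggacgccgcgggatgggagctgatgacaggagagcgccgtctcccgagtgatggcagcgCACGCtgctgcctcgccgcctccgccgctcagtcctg
Dsp: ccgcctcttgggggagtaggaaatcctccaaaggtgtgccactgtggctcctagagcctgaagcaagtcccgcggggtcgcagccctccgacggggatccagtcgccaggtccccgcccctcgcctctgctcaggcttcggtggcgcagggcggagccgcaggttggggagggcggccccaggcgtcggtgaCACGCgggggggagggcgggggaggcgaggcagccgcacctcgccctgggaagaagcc

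Counted from the start site, the core began at positions -233 and -37 in C1ql2 and at -58 in Dsp. Dock10, which has 2 annotated windows, held it once in each, at -184 and -182 from the respective starts, and the first of these stands in the stretch tggagccaccccCACGCgcgtcccgctgc on the minus strand of chromosome 1. The 3 genes with the lowest p, Prox1, Trpc6 and Stxbp6, held none in these windows. A match describes letters and not a bound site, and its absence here speaks only of these windows.

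Prox1 is the homeodomain transcription factor that specifies granule neurons and is needed to keep them from a CA3-like fate. It read 9.96, 9.78 and 10.02 log2 on Ahr-KO arrays 1 to 3 and 9.48, 9.79 and 9.65 on wildtype arrays 1 to 3. The groups overlapped narrowly, since Ahr-KO array 2 lay just under wildtype array 2. The means were 9.92 ± 0.12 and 9.64 ± 0.16 (SD, n = 3 each), a difference of 0.28 ± 0.10 (SE) with a 95% interval of 0.04 to 0.52, or 1.22-fold (limma adjusted p = 0.797). The unadjusted limma p was 0.0256 with all 6 arrays. Without wildtype array 1, the lowest of the 6, the difference was 0.20 (unadjusted p = 0.0910 in limma). The weakening was not confined to that array. The unadjusted limma p was 0.0658 without Ahr-KO array 1, 0.0888 without Ahr-KO array 3 and 0.0559 without wildtype array 3. It was lower, at 0.0130 and 0.0112, without Ahr-KO array 2 and without wildtype array 2.

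Trpc6 forms a calcium-permeable cation channel opened by diacylglycerol. It read 9.12, 9.07 and 9.07 log2 on the Ahr-KO arrays and 8.66, 8.97 and 8.80 on the wildtype arrays. All Ahr-KO values lay above all wildtype values, and the Ahr-KO values were tightly grouped. The difference was 0.28 ± 0.09 (SE), with an interval of 0.07 to 0.49 (limma adjusted p = 0.770). It was 0.20 without wildtype array 1 (unadjusted p = 0.0526 in limma). Of the other channels of this family Trpc5 differed by 0.10 ± 0.09, Trpc7 by 0.08 ± 0.18, Trpc4 by 0.07 ± 0.19 and Trpc1 by -0.03 ± 0.08 (SE each).

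Calb1, the calcium buffer calbindin, fills mature granule neurons and also occurs in superficial CA1 neurons and some interneurons. It read 10.55, 10.54 and 10.51 log2 in Ahr-KO and 10.36, 10.49 and 10.52 in wildtype. Wildtype array 1 was low and the other 5 arrays lay close together, so the groups overlapped. The difference was 0.07 (95% interval -0.10 to 0.25) and was 0.027 without wildtype array 1. The other calcium buffers of this kind went both ways. Calb2, calretinin, which marks immature granule neurons, mossy cells and interneurons, differed by 0.31 ± 0.15 (SE), and Pvalb, parvalbumin of fast-spiking interneurons, by -0.39 ± 0.12, with neither past the test over all genes (limma adjusted p = 0.817 and 0.770).

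Stxbp6, also called amisyn, binds SNARE proteins and restrains vesicle fusion. Its values were 9.36, 9.24 and 9.31 log2 in Ahr-KO and 9.05, 9.01 and 9.10 in wildtype. The genotypes did not overlap, and the spread within each was small, with a pooled SD of 0.05 that was lower in only 8.55% of all genes. The difference was 0.25 ± 0.07 (SE), with an interval of 0.09 to 0.42, or 1.19-fold (limma unadjusted p = 0.00799, adjusted p = 0.770). It stayed between 0.23 and 0.28 with any 1 array left out. By unadjusted p Stxbp6 held rank 214 among the 22180 genes.

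Stxbp6 is the only identity gene on the chromosome of the targeted locus. It lies on chromosome 12 at 44852484 to 45075118 (GRCm38.p6), 9.32 Mb from Ahr at 35497979 to 35534989. Within 10 Mb of Ahr lie 82 measured genes, Stxbp6 among them and Ahr itself left out. Of these 4, Stxbp6 included, had an unadjusted p under 0.05 in limma (4.88%, background 6.18%). None had a lower p than Stxbp6, but Stxbp6 was listed with its difference already known, so this order carries no weight. The window reaches only just beyond Stxbp6, and a count in it cannot tell what the interval contributes. The sources used here do not state the strain origin of this interval, and its part in the difference of Stxbp6 was not tested. Of the other identity genes 4 lie on chromosome 1 (Prox1, C1ql2, Lct and Dock10) and 1 each on chromosomes 4, 9, 13 and 15.

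C1ql2 is a secreted C1q-like protein that granule neurons release from mossy fibre terminals, where it organises kainate receptors. It read 9.41, 9.54 and 9.56 log2 in Ahr-KO and 9.33, 9.49 and 9.23 in wildtype. The groups overlapped through Ahr-KO array 1 and wildtype array 2, which are the pair with high choroid plexus signal. The difference was 0.15 (95% interval -0.05 to 0.36, limma adjusted p = 0.831) and 0.27 without these arrays (unadjusted p = 0.0295). Its relative C1ql1 differed by 0.23 ± 0.11 and C1ql4, which averaged below the median row, by 0.03 ± 0.12 (SE each).

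Dock10 activates the small GTPases Cdc42 and Rac and takes part in spine formation. It read 9.93, 9.80 and 10.06 log2 in Ahr-KO and 9.70, 9.95 and 9.89 in wildtype. The groups overlapped widely, and the lowest value was again wildtype array 1. The difference was 0.09 (95% interval -0.14 to 0.31), and 0.014 without that array. Its 9 measured relatives lay on both sides of 0, from Dock2 (-0.13 ± 0.13, SE), Dock5 (-0.11 ± 0.08) and Dock8 (-0.10 ± 0.08) to Dock11 (0.11 ± 0.18) and Dock6 (0.27 ± 0.12), and the other 4 between -0.03 (Dock3) and 0.04 (Dock4).

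Dsp, desmoplakin, anchors intermediate filaments at desmosomes and is also made by epithelia. It read 8.51, 8.47 and 8.72 log2 in Ahr-KO and 8.30, 8.68 and 8.55 in wildtype. The wildtype values spanned the widest range of the 9 genes and enclosed 2 of the 3 Ahr-KO values. The difference was 0.05 (95% interval -0.21 to 0.32), and its sign turned without wildtype array 1 (-0.051) and without Ahr-KO array 3 (-0.023). Of the 5 measured desmosomal partners Dsg2 differed by -0.17 ± 0.10 (SE), Pkp4 by -0.03 ± 0.08, Dsc2 by -0.01 ± 0.09, Pkp2 by 0.02 ± 0.13 and Jup by 0.02 ± 0.14.

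Lct, the lactase of the intestine, is a marker of granule neurons in the hippocampus with no role there that is generally established. It read 7.93, 7.97 and 8.18 log2 in Ahr-KO and 7.93, 8.14 and 7.90 in wildtype. One array in each group stood higher than the rest, Ahr-KO array 3 and wildtype array 2, and the groups overlapped. The difference was 0.04 (95% interval -0.19 to 0.27), and -0.039 without Ahr-KO array 3 and -0.0065 without wildtype array 3.

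Pdzd2, a large protein with several PDZ domains, was the only identity gene with a lower mean in Ahr-KO, and that direction depended on the arrays and on the scaling. It read 7.70, 7.69 and 7.71 log2 in Ahr-KO and 7.72, 7.82 and 7.64 in wildtype. The Ahr-KO values were nearly equal and lay within the wildtype range. The difference was -0.03 (95% interval -0.20 to 0.15), and it was 0.0012, with the opposite sign, after the arrays were quantile-normalized again. Median centring left it at -0.036, and it was 0.023 without wildtype array 2 and also 0.023 without the pair with high choroid plexus signal.

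**Figure D1:**
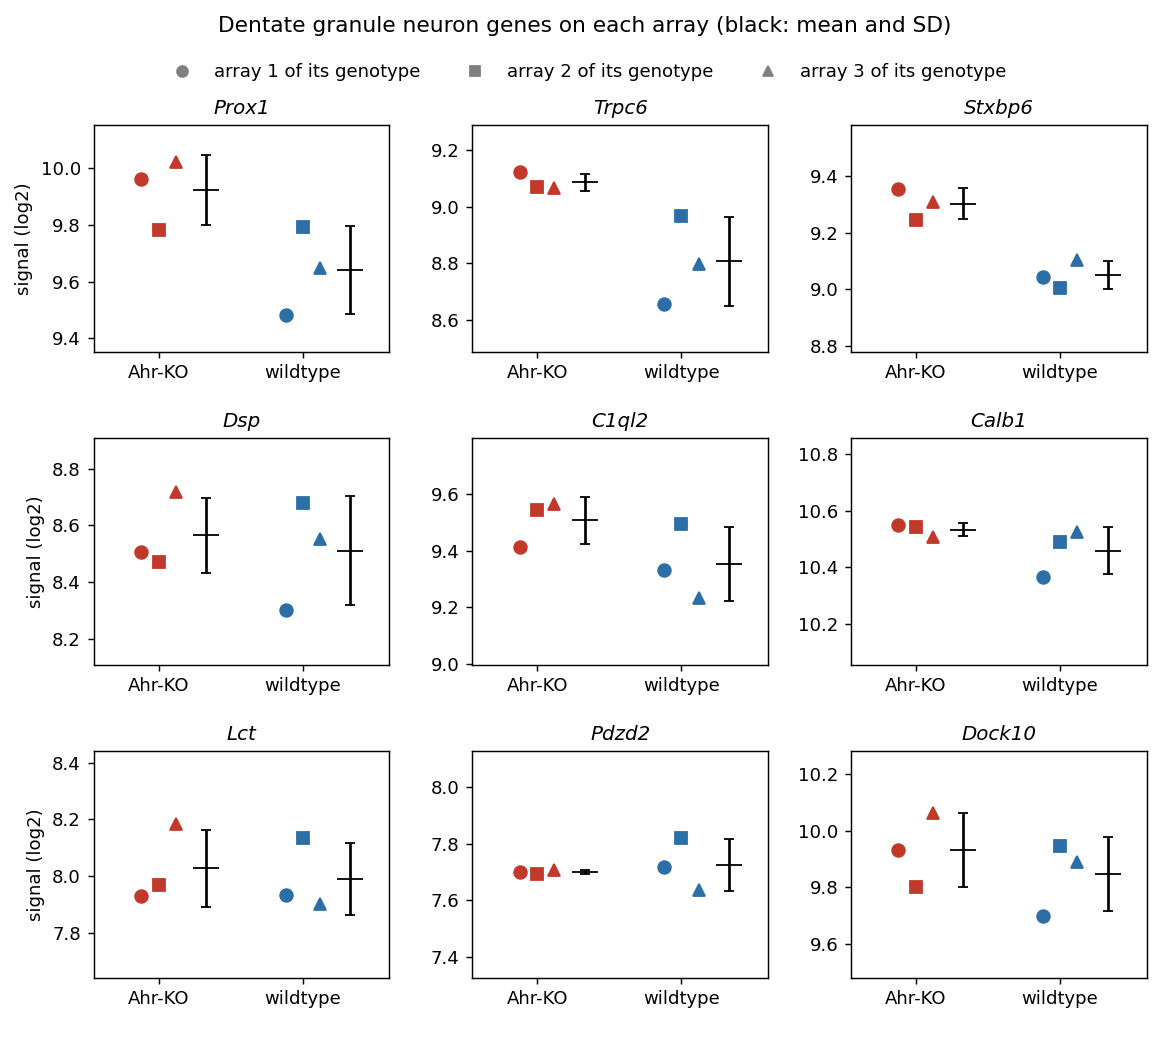
Log2 signal (y axis, 0.8 log2 in every panel) of the 9 dentate granule neuron genes on the 3 Ahr-KO arrays (red) and the 3 wildtype arrays (blue), with the mean and SD of each genotype in black. Trpc6 and Stxbp6 are the 2 genes whose genotypes do not overlap, and wildtype array 1 (circle) is the lowest array for 5 of the 9 genes.

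The plot of values by array shows which arrays carry the difference. Genotypes did not overlap in 2 of the 9 genes, both with higher values in Ahr-KO, where 6.18% of all genes had that pattern and 5.75% the opposite one. These 2, Trpc6 and Stxbp6, were listed with their differences already known, so the count is no independent support. Wildtype array 1 had the lowest value for 5 genes (Prox1, Trpc6, Dsp, Calb1 and Dock10), wildtype array 3 for 3 and wildtype array 2 for 1. Ahr-KO array 3 had the highest value for 5 genes, Ahr-KO array 1 for 3 and wildtype array 2 for 1. Ahr-KO array 2 was neither highest nor lowest for any of them. Averaged over the 9 genes after each gene's own mean was subtracted, the arrays stood at 0.05, 0.02 and 0.13 log2 in Ahr-KO and at -0.16, 0.04 and -0.08 in wildtype. Wildtype array 2 thus lay among the Ahr-KO arrays. The difference of these averages was 0.13 log2, and 0.09 without wildtype array 1.

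Genes of the neocortex, the tissue that overlies the hippocampus, moved the opposite way between arrays. The 12 measured genes of that list averaged 8.17, 8.60 and 8.28 log2 on the Ahr-KO arrays and 8.63, 8.20 and 8.55 on the wildtype arrays. The 3 arrays with the higher neocortex level, Ahr-KO array 2 and wildtype arrays 1 and 3, were the 3 arrays with the lowest average of the identity genes. On each of these 10 of the 12 neocortex genes were above their own mean, against 2, 5 and 0 on Ahr-KO arrays 1 and 3 and wildtype array 2. None of the 12 passed the test over all genes or had an unadjusted p under 0.05 (background 6.18%), 10 had a lower mean in Ahr-KO, and the median difference was -0.09 log2. Those with the lowest p were Rorb (0.15 ± 0.09, SE), Cux2 (-0.27 ± 0.18) and Lamp5 (-0.31 ± 0.23), and several of these genes are also expressed in the hippocampus. With the level of the list as a covariate, a setting added after the data had been seen, the difference of Prox1 was 0.22, that of Trpc6 0.24 and that of Stxbp6 0.25 log2, while the differences of Dsp and Lct were 0.0027 and 0.0054. The same 3 genes had an unadjusted p under 0.05 in that fit, as had 1633 of all 22180 genes, against 1371 without the covariate. None of the 9 identity genes passed over all genes (limma adjusted p = 0.626 to 0.997). Other lists shared this split. As deviations from own means, thalamus genes averaged -0.12, 0.08 and 0.01 log2 in Ahr-KO and 0.08, -0.12 and 0.06 in wildtype. CA2 and CA3 genes averaged 0.04, -0.01 and 0.04, and -0.11, 0.12 and -0.08. Hilar mossy cell genes averaged 0.08, -0.04 and 0.06, and -0.06, 0.10 and -0.14. Both these lists were lowest on the same 3 arrays as the identity genes, and CA1 genes were not.

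**Figure D2:**
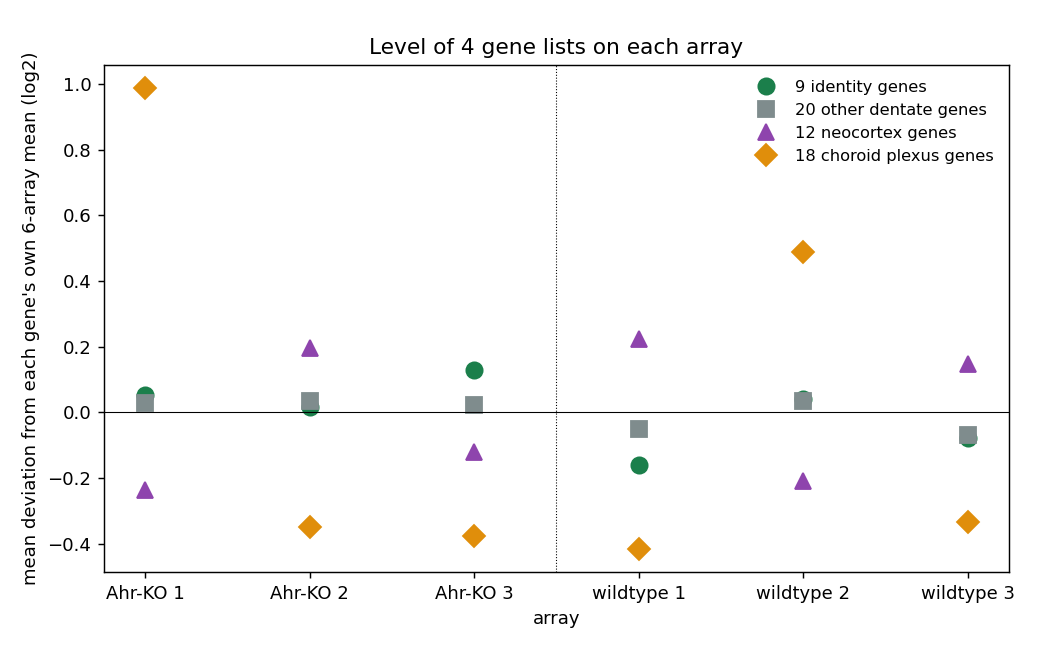
Mean deviation of 4 gene lists from each gene's own mean over the 6 arrays (y axis, log2) on each array (x axis). The identity genes (green circles) are lowest on wildtype array 1, at -0.16, where the neocortex genes (purple triangles) are highest, at 0.22, and choroid plexus genes (orange diamonds) are high on Ahr-KO array 1 and wildtype array 2.

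The plot of list levels also sets the identity genes beside choroid plexus genes. The 18 measured choroid plexus genes averaged 7.14 and 6.64 log2 on Ahr-KO array 1 and wildtype array 2 and between 5.73 and 5.82 on the other 4 arrays, and 18 and 16 of them were above their own mean on that pair. With the pair left out the mean was higher in Ahr-KO for all 9 identity genes, with a median difference of 0.17 log2. Among the wildtype arrays, array 2 had the highest average of the identity genes (0.04 log2). Leaving it out therefore lowers the wildtype average. The share of all genes with a higher mean was not computed without the pair. Identity genes at an unadjusted p under 0.05 numbered 3, now Prox1 (0.34), Trpc6 (0.34) and C1ql2 (0.27), beside 1342 of all 22180 genes. The p of Stxbp6 was 0.0777 in that limma fit of 4 arrays, with a difference of 0.20. No identity gene passed over all genes there (limma adjusted p = 0.769 to 0.993). With the choroid plexus level as a covariate on all 6 arrays, 8 means were higher, with a median difference of 0.08 log2. Prox1, Trpc6 and Stxbp6 had a limma unadjusted p under 0.05 in that fit, beside 1472 of all 22180 genes. The share of all genes with a higher mean was not computed in it either.

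The other dentate granule genes, whose difference from the identity genes was not tested, also had more higher than lower means. Of 20 listed genes, all measured, 14 means were higher in Ahr-KO and 6 lower, with a median difference of 0.05 log2. None passed over all genes, and 2 had higher values at an unadjusted p under 0.05 (background 3.53%) and 0 lower values. These were Sema5a, a semaphorin that limits synapse formation on granule neurons, at 0.26 ± 0.10 (SE), and Fam163b at 0.26 ± 0.11. Sema5a read 9.42, 9.45 and 9.55 log2 in Ahr-KO and 9.06, 9.42 and 9.17 in wildtype, again with wildtype array 1 lowest. Fam163b read 9.47, 9.86 and 9.58 in Ahr-KO and 9.42, 9.41 and 9.29 in wildtype, without overlap. Ablim3, an actin-binding protein, differed by 0.15 ± 0.08. Tdo2, an enzyme of tryptophan breakdown confined largely to granule neurons within the hippocampus, had the lowest difference of the 20 (-0.15 ± 0.14).

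**Figure D3:**
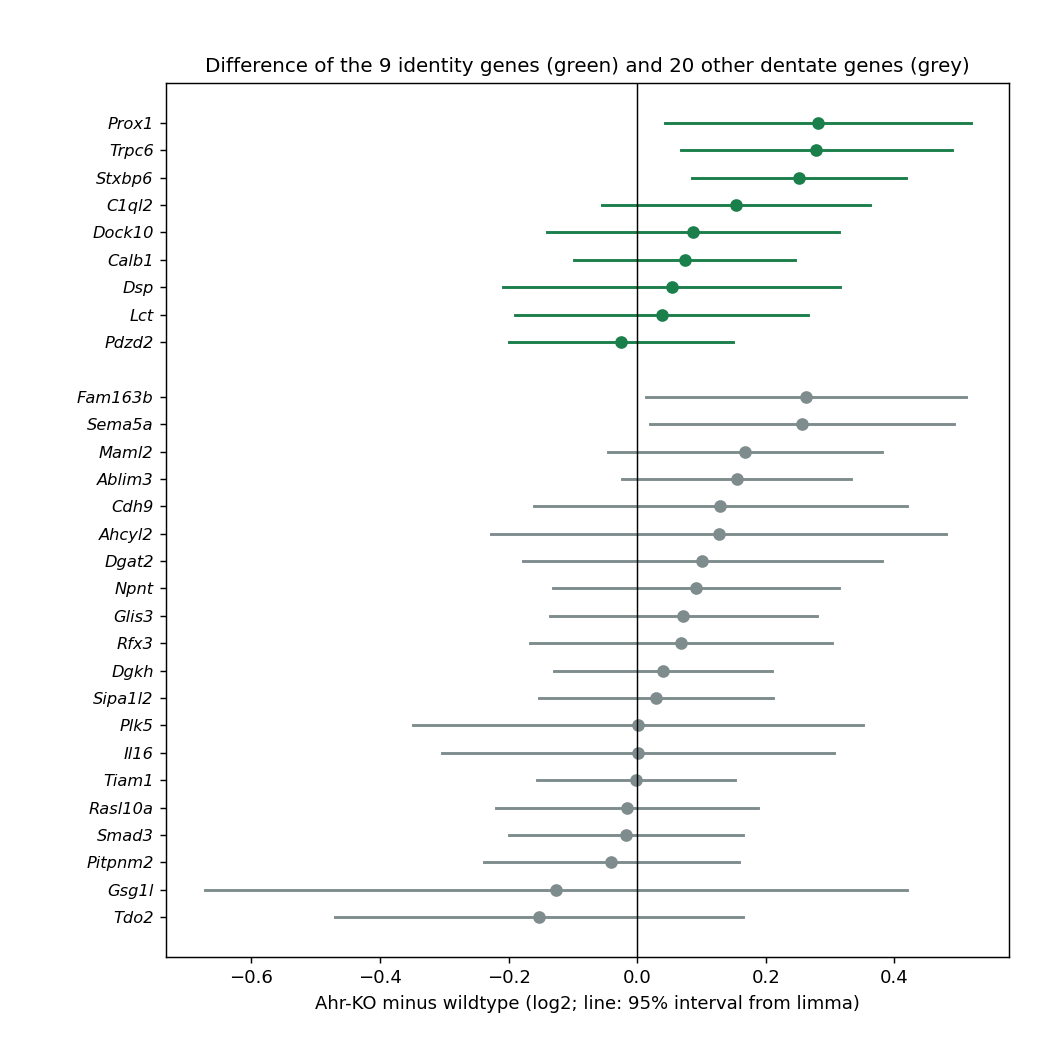
Difference between Ahr-KO and wildtype (x axis, log2) with the 95% interval from limma for the 9 identity genes (green) and the 20 other dentate granule genes (grey), each sorted by difference. The intervals of Prox1, Trpc6, Stxbp6, Fam163b and Sema5a lie above 0, and none of the 29 genes passed over all genes.

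As the plot of differences shows, the intervals of Dsp, C1ql2, Calb1, Lct, Pdzd2 and Dock10 were wide next to their differences and spanned 0. Those of Prox1, Trpc6 and Stxbp6 began just above 0, at 1.03-, 1.05- and 1.06-fold. The upper ends for Dsp, Calb1, Lct and Pdzd2 were 1.24-, 1.19-, 1.20- and 1.11-fold, so larger increases of these genes lie outside the intervals, while increases up to those sizes do not.

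Transcription factors of the granule lineage, which act before and beside Prox1, had 14 of 18 measured means higher in Ahr-KO, with a median difference of 0.07 log2. At an unadjusted p under 0.05, 1 had higher values (background 3.53%) and 0 lower values. This was Nfia, a nuclear factor that acts in neural progenitors and glia, at 0.16 ± 0.07 (SE, limma adjusted p = 0.806). Its relative Nfix differed by 0.14 ± 0.07 and Eomes, which marks intermediate progenitors and averaged below the median row, by 0.17 ± 0.10. Among 14 genes of immature granule neurons 2 had higher and 1 had lower values at an unadjusted p under 0.05, with 9 means higher and a median difference of 0.07. They were Draxin (0.43 ± 0.12), Igfbpl1 (0.26 ± 0.09) and Stmn1 (-0.38 ± 0.13), and none passed over all genes.

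Genes of the mossy fibre terminal, the output of granule neurons, were spread around 0. Of 14 measured genes 9 means were higher and 5 lower, with a median difference of 0.02 log2. Penk, the precursor of enkephalin peptides, had the only unadjusted p under 0.05 (background 2.65% for lower values). It read 8.40, 8.63 and 8.59 log2 in Ahr-KO and 8.73, 8.96 and 9.07 in wildtype, a difference of -0.38 ± 0.11 (SE, limma adjusted p = 0.770) without overlap. Penk is also made by interneurons and striatal neurons. Bdnf, the neurotrophin that mossy fibres store, differed by 0.14 ± 0.09 and the adhesion protein Kirrel3 by 0.09 ± 0.07. In the list of 27 measured relatives and partners of the identity genes 13 means were higher and 14 lower, with a median difference of -0.01, and Pvalb alone had an unadjusted p under 0.05.

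Genes of the neighbouring hippocampal neurons included none at an unadjusted p under 0.05, where the background of 6.18% gives few in lists of this size. Means were higher in Ahr-KO for 3 of 9 CA1 genes (median difference -0.01 log2), for 7 of 12 CA2 and CA3 genes (0.05) and for 8 of 10 genes of hilar mossy cells (0.07). In the first list Wfs1 differed by -0.37 ± 0.19, Mpped1 by -0.17 ± 0.10 and Fibcd1 by 0.16 ± 0.09 (SE each). In the second Bok differed by 0.22 ± 0.12, Ccdc3 by -0.14 ± 0.08 and Coch by -0.19 ± 0.13. Among mossy cell genes Drd2, a dopamine receptor, differed by 0.14 ± 0.08 and Ajap1 by 0.10 ± 0.08. Thalamus genes had 5 of 10 means higher, and Rora differed by -0.19 ± 0.08. Tnnt1 (0.25 ± 0.09) and Gbx2 (0.26 ± 0.10) had an unadjusted p under 0.05 (background 3.53% for higher values). Both were dim and averaged below the median row. Striatum genes had 4 of 7 higher, with Gpr6 at -0.37 ± 0.16, Tac1 at 0.07 ± 0.09 and Adcy5 at -0.06 ± 0.08. Choroid plexus genes had 15 of 18 higher, with Krt8 at 0.13 ± 0.11, Cldn2 at 0.40 ± 0.38 and Tmem72 at 0.33 ± 0.35, and no unadjusted p under 0.05. Cldn2 and Tmem72 also averaged below the median row.

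The genes whose pattern over the 6 arrays was most like the average of the identity genes were Slc4a4, a sodium bicarbonate cotransporter (Pearson r = 0.997), Cers6, a ceramide synthase (r = 0.991), and Wdr41 (r = 0.989). They were the highest of 13154 genes at or above the median row, so these r describe the best of a large search over 6 arrays and carry no test. Slc4a4 read 10.69, 10.63 and 10.77 log2 in Ahr-KO and 10.47, 10.68 and 10.56 in wildtype, so that it too was lowest on wildtype array 1 and highest on Ahr-KO array 3. Its difference was 0.13 ± 0.08 (SE), that of Cers6 0.15 ± 0.08 and that of Wdr41 0.03 ± 0.07, with none past the test over all genes.

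**Figure D4:**
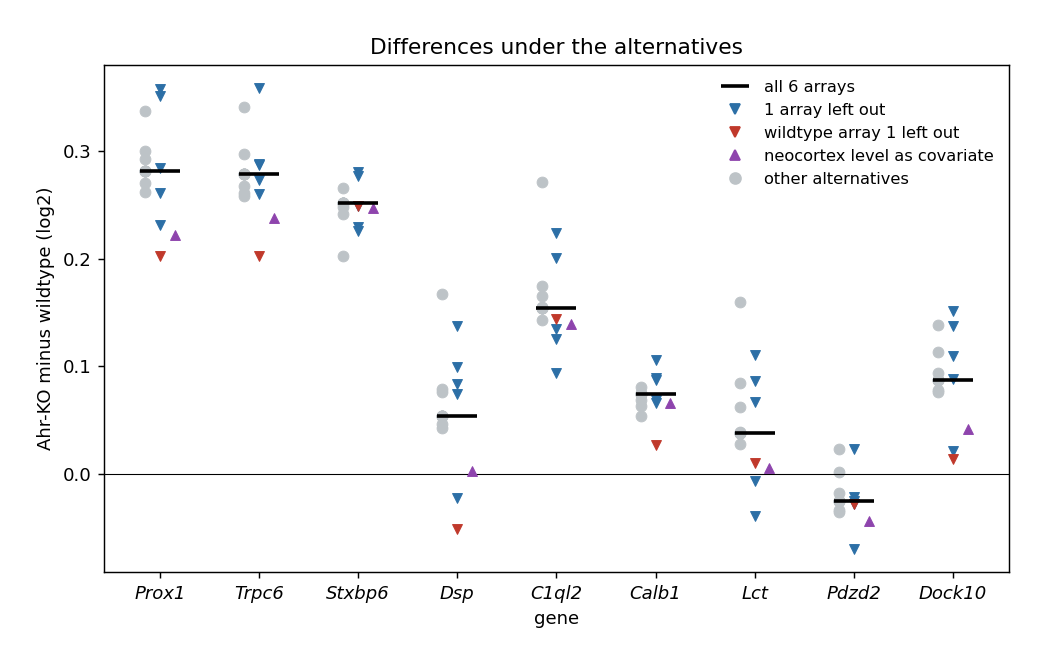
Difference between Ahr-KO and wildtype (y axis, log2) of each identity gene with all 6 arrays (black bar), with 1 array left out (blue, and red for wildtype array 1), with the neocortex level as a covariate (purple) and under the other alternatives (grey). Prox1, Trpc6 and Stxbp6 stay at 0.20 or above throughout, while Dsp, Lct and Pdzd2 lie on both sides of 0.

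The plot of alternatives shows the range of each difference over the choices of arrays, scaling and model. Over 18 alternatives the difference of Prox1 ran from 0.20 to 0.36 log2, that of Trpc6 from 0.20 to 0.36 and that of Stxbp6 from 0.20 to 0.28. C1ql2 ran from 0.09 to 0.27, Calb1 from 0.03 to 0.11 and Dock10 from 0.01 to 0.15. Dsp (-0.05 to 0.17), Lct (-0.04 to 0.16) and Pdzd2 (-0.07 to 0.02) changed sign in at least 1 of them. The adjusted p of the 9 genes ran from 0.563 to 0.999 over these limma fits.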

How the data were processed

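The authors deposited log2 signals, 1 per probe set and array, made with RMA in Affymetrix Expression Console per the submitters' processing notes. Per the labels' protocols, Trizol was used for RNA extraction and the GeneChip WT PLUS kit for labelling. RMA quantile-normalizes arrays together, which removes overall shifts and compresses fold changes. Of 41345 rows 23521 were paired with 1 gene symbol, updated through Entrez IDs to RefSeq symbols (23328 found), and the probe set with the highest mean was kept, giving 22180 genes. Neither scan dates nor detection calls entered the analysis, and the number of arrays limits the precision.

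The contrast of genotypes was fitted in R 4.3.3 by limma 3.58.1 (lmFit, then eBayes; two-sided, Benjamini-Hochberg over all genes, threshold 0.05, 4 residual and 4.33 prior degrees of freedom). The fit was also run on simulated data with independent noise and larger differences than those of the identity genes. That run does not tell whether differences of their size would be found. An exact permutation test of 3 against 3 arrays cannot go below p = 0.1. The identity genes, the 12 other lists and the rules were chosen with earlier results of these data known. Besides these genes the text names Ahr, the choroid plexus gene Ttr, the 3 genes of each list with the lowest p and the 3 most similar genes. Chosen after their values were seen were Tdo2 and relatives of identity genes (of Trpc6, Dock10, Dsp and C1ql2). The mouse numbers did not pair the arrays (r = -0.22 to 0.05 between same-numbered arrays). Figures were drawn with matplotlib 3.10.9.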

Additional observations from a re-analysis of the deposited data

How the results depend on the processing

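The 18 alternatives varied the variance model, array weights, normalization, filter, probe sets, symbols, block, left-out arrays and covariates. Across them 0 identity genes passed over all genes in limma. In the variance model, filter, probe set, symbol and block settings each difference equalled the main one, so its sign could not turn. Of all 162 differences 155 kept their sign. The others were Pdzd2 after renewed quantile normalization (0.0012), without wildtype array 2 (0.023) and without the pair of arrays with choroid plexus signal (0.023), Dsp without Ahr-KO array 3 (-0.023) or wildtype array 1 (-0.051), and Lct without Ahr-KO array 3 (-0.039) or wildtype array 3 (-0.0065). With any 1 array left out Pdzd2 ran from -0.070 to 0.023, Dsp from -0.051 to 0.14 and Lct from -0.039 to 0.11. The cause was not tested. The count of identity genes at an unadjusted p under 0.05 ran from 1 (without wildtype array 1) to 4 with 1 array left out. That of all 22180 genes ran from 1124 to 1602 in these fits. Identity genes with higher means numbered 6 to 9, and their median difference ran from 0.027 to 0.14. The share of all genes with a higher mean was not computed with 1 array left out. Over all genes an intensity trend gave 2 genes past the threshold in place of 0, and the filter on dim probe sets, with fewer genes tested, gave 888 at an unadjusted p under 0.05 in place of 1371. With the replicate block, built on the mouse numbers alone, 3 identity genes had an unadjusted p under 0.05, 8 had higher means and 1122 genes had an unadjusted p under 0.05. No depth is known for arrays.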
